A study of Mus musculus with 23 samples.

Results

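Integrins and laminins are the receptors and the ligands through which cells hold on to the sheet of matrix beneath them. The genes described here are those on the array whose symbol names an integrin alpha or beta subunit (Itga or Itgb followed by a number or letters) or a laminin chain (Lama, Lamb or Lamc followed by a digit), without the integrin-binding proteins of the Itgb1bp and Itgb3bp names. The rule found 38 of the 24704 genes tested, namely 18 integrin alpha genes, 10 genes of the beta group and 10 laminin chains. The rule used names and no measured value.

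The study exposed primary endothelial cells of the mouse aorta, its innermost cell layer, for 48 h to medium in which 10% mouse plasma took the place of fetal calf serum. The plasma donors lacked apolipoprotein E (ApoE-KO, n = 5 arrays), apolipoprotein E together with Stabilin-1 (ApoE-Stab1-KO, n = 6) or apolipoprotein E together with Stabilin-2 (ApoE-Stab2-KO, n = 6), or were Wildtype (n = 6). The 3 knockout donor groups had received Western diet for 8 weeks, no diet is stated for the Wildtype donors, and all samples carry the strain label C57BL/6J, so that donor genotype and donor diet cannot be told apart where Wildtype plasma is the reference. Each group is thus named for its plasma donors, and the cells are the same kind in all groups. Whether replicates were separate cultures or separate donors is not stated, and p-values here measure only how far these samples spread, which may be technical.

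An integrin is a pair of 1 alpha and 1 beta subunit that spans the cell membrane and ties the matrix outside to the actin skeleton inside. A laminin is a trimer of 1 alpha, 1 beta and 1 gamma chain and forms, with type IV collagen, nidogen and perlecan, the basement membrane. Endothelial cells are known to lay down laminins that hold the Lama4 or Lama5 chain with Lamb1 or Lamb2 and Lamc1, and to bind them through integrins that hold Itga6 or Itga3, while Itga5 with Itgb1 binds fibronectin and Itgav with Itgb3 or Itgb5 binds vitronectin and other proteins with the RGD motif.

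Each array gave a log2 value per gene, and the median value was 4.33. Between arrays, r across genes lay between 0.992 and 0.997, and 0 pairs were identical. All 14 endothelial marker genes lay above the median gene level. Of the leukocyte markers 1 of 7 did, Cd68 (10.98 to 11.43), while Ptprc, the pan-leukocyte marker, lay between 2.84 and 3.17 in the 23 arrays. The markers of smooth muscle above the median level were 3 of 8, those of fibroblasts 2 of 7, those of platelets 3 of 5, those of lymphatic endothelium 3 of 4 (Lyve1 between 12.6 and 12.9, Prox1 between 3.14 and 3.51) and those of epithelium 1 of 6. Of the 38 integrin and laminin genes, 23 lay above the median level, and the 15 below it were Itga8, Itga11, Itgad, Itgae, Itgal, Itgam, Itgax, Itgb2l, Itgb6, Itgb8, Itgbl1, Lama1, Lama2, Lamb3 and Lamc3, for which a signal close to background cannot be told apart from expression. The spread between arrays of 1 group, taken as the SD within groups, had a median of 0.09 over the 23 brighter members and of 0.13 over all genes above the median level. In bulk RNA, fewer cells of a type and less RNA per cell cannot be told apart.

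Of the 38 genes, 4 passed the threshold (limma, Benjamini-Hochberg adjusted p under 0.05 over all 24704 genes) in at least 1 of the 7 comparisons or in the F-test: Itga4, Itga6, Itgav and Lama3. Of all genes, 1.08% did. Promoter sequence was at hand for 25 of the 38 genes, 2 of them among these 4. The windows of 250 bases before the transcription start of Itga4 and Itgav, both on chromosome 2, are shown because these genes went in opposite directions with plasma of ApoE-deficient mice. They are RefSeq sequences of GRCm38.p6 on the plus strand, chr2:79255176-79255425 for Itga4 and chr2:83724147-83724396 for Itgav, written 5′ to 3′ with matches to the motifs searched in capitals.
Itga4: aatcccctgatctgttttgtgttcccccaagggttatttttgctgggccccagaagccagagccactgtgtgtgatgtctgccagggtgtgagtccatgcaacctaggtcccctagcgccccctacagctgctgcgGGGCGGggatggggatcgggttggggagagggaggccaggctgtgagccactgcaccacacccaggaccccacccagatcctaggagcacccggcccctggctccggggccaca
Itgav: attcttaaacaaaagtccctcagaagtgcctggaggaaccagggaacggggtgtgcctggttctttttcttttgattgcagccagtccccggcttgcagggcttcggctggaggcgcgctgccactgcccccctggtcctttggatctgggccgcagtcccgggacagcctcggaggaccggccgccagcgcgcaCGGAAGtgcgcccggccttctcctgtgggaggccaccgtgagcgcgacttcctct
Searched on both strands were GGGCGG (the GC box), CGGAAG (a core of ETS sites), TGANTCA (the AP-1 site), CACGTG (an E-box) and TATAAA (the TATA box), of which no pair of matches overlapped. The Itga4 window held 1 GC box, at bases -114 to -109 from the start, and no other match. The Itgav window held 1 ETS-type core, at bases -55 to -50, and no other match. Among 32851 windows of the same length, 32.7% held the GC box, 13.6% the ETS-type core, 6.75% the AP-1 site, 6.02% the E-box and 12.4% the TATA box. The G and C content was 64% for Itga4 and 64.4% for Itgav, with a median of 52.4% over all windows. These matches describe the letters of the windows only.

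The moderated F-test over the 4 plasma groups asks which genes differed between any of them. Of the 38 members, 2 passed it, Itga4 (adjusted p = 0.014) and Itga6 (adjusted p = 0.0457), where 0.546% of all genes passed. Itgav (adjusted p = 0.0694), Lama3 (0.0988), Lama4 (0.159), Itgb2 (0.196) and Itga5 (0.225) were the members with the next smallest p, and none of these passed limma's F-test.

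Against Wildtype plasma, ApoE-KO plasma gave 0 members higher and 1 lower, with 0.53% of all genes called. ApoE-Stab1-KO plasma gave 1 higher and 0 lower, with 0.364% of all genes called, and ApoE-Stab2-KO plasma 0 higher and 2 lower, with 0.178% of all genes called. The mean of the 3 ApoE-deficient groups against Wildtype gave 1 higher and 2 lower, with 0.777% of all genes called. These comparisons share the 6 Wildtype arrays. The median difference over the 38 members was -0.03, -0.00 and -0.05 in log2 for ApoE-KO plasma, for ApoE-Stab1-KO plasma and for ApoE-Stab2-KO plasma, beside 0.00 over all genes in each comparison. Over the 23 members above the median level it was -0.0658, -0.0586 and -0.0747. The median of all genes above that level was not taken, so the 0.00 over all genes is an unlike reference for these values. In the same order, the 14 endothelial markers had medians of -0.0657, -0.0755 and -0.0646. The 8 laminin receptors that are not integrins, also above that level, had 0.0603, 0.0384 and 0.0397. At an unadjusted p under 0.05 stood 8, 8 and 6 of the 38 members, or 21.1%, 21.1% and 15.8%, where 10.5%, 11.3% and 8.49% of all genes did. In the mean of the 3 groups it was 13 members, or 34.2%, where 10.9% of all genes did.

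**Figure D1:**
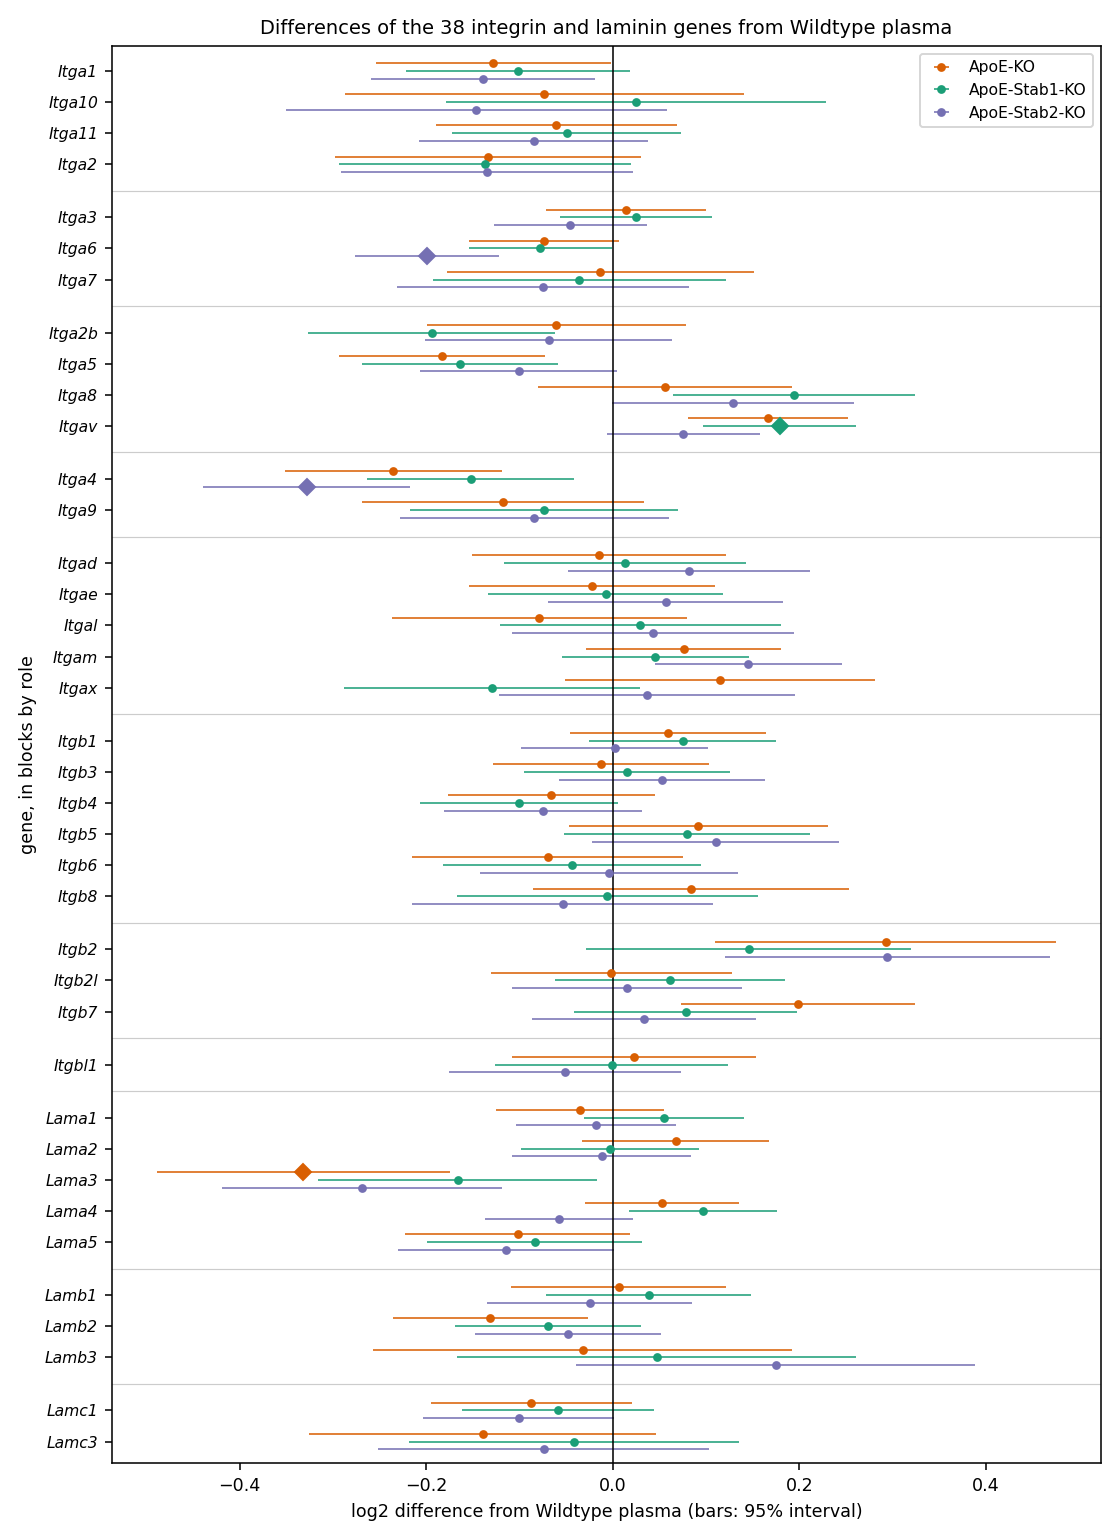
Difference from Wildtype plasma (log2, x axis) for each of the 38 genes, in blocks by role, with ApoE-KO in orange, ApoE-Stab1-KO in green and ApoE-Stab2-KO in purple; bars are 95% intervals of the limma fit and large diamonds mark the differences past the threshold. The 4 diamonds are Itga4 and Itga6 with ApoE-Stab2-KO plasma, Itgav with ApoE-Stab1-KO plasma and Lama3 with ApoE-KO plasma.

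Itga4 (Entrez gene 16401) encodes the alpha 4 subunit, which pairs with Itgb1 or Itgb7 and binds Vcam1 and fibronectin, and is best known from leukocytes. With Wildtype plasma its log2 value ran from 8.45 over a median of 8.59 to 8.67. With ApoE-KO plasma the arrays read 8.48, 8.34, 8.17, 8.30 and 8.41. With ApoE-Stab1-KO plasma the lowest, median and highest were 8.29, 8.44 and 8.54, and with ApoE-Stab2-KO plasma 8.21, 8.24 and 8.32. All ApoE-Stab2-KO arrays lay below all Wildtype arrays, as was so for 0.514% of all genes, while the other knockout groups overlapped with Wildtype. Itga4 fell with ApoE-Stab2-KO plasma by 0.33 ± 0.05 (SE) to 0.797-fold (limma adjusted p = 0.00546), and in the mean of the 3 ApoE-deficient groups by 0.24 ± 0.04 (adjusted p = 0.0073). The call of ApoE-Stab2-KO against Wildtype held with each of the 23 arrays left out (adjusted p 0.0035 to 0.0209). The call in the mean of the 3 groups ended with a fold of at least 1.2 required as well. The F-test call of Itga4 ended with the replicate number as a block (0.0532). The difference was -0.24 ± 0.06 for ApoE-KO (adjusted p = 0.0589) and -0.15 ± 0.05 for ApoE-Stab1-KO plasma (adjusted p = 0.256), neither past the threshold. The ApoE-KO difference passed among genes above the median level (0.0355) and with array weights (0.0325). Between ApoE-Stab2-KO and ApoE-Stab1-KO plasma the difference of -0.18 ± 0.05 did not pass (limma adjusted p = 0.196), so the groups of ApoE-deficient plasma were not shown to differ in Itga4.

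Itga6 (Entrez gene 16403) encodes the alpha 6 subunit, a laminin receptor that pairs with Itgb1 or Itgb4. Its values ran over a narrow range. The lowest, median and highest were 10.94, 10.97 and 11.04 with Wildtype plasma, 10.86, 10.89 and 10.96 with ApoE-Stab1-KO plasma, and 10.72, 10.77 and 10.84 with ApoE-Stab2-KO plasma. The ApoE-KO arrays read 11.01, 10.91, 10.80, 10.88 and 10.91. The ApoE-Stab2-KO arrays lay below all Wildtype arrays and also below all ApoE-Stab1-KO arrays, the latter as for 0.381% of all genes. Itga6 fell with ApoE-Stab2-KO plasma by 0.20 ± 0.04 to 0.871-fold of Wildtype (limma adjusted p = 0.0182). This call ended without ApoE-Stab2-KO replicate 3 (adjusted p = 0.057), replicate 4 (0.0582) or replicate 6 (0.0522), or without Wildtype replicate 4 (0.0605), and with only the arrays of the 2 groups compared (0.0519). It also ended with the replicate number as a block (0.0563) and with a fold of at least 1.2 required as well. The differences of -0.07 ± 0.04 with ApoE-KO (adjusted p = 0.534) and of -0.08 ± 0.04 with ApoE-Stab1-KO plasma (0.438) did not pass. Against ApoE-KO plasma, ApoE-Stab2-KO plasma gave -0.13 ± 0.04 (limma adjusted p = 0.333), and against ApoE-Stab1-KO plasma -0.12 ± 0.04 (0.196). The F-test of Itga6 missed the threshold in 17 of 23 fits with 1 array left out (adjusted p 0.0333 to 0.116), namely without replicate 2, 4 or 5 of ApoE-KO, 4, 5 or 6 of ApoE-Stab1-KO, ApoE-Stab2-KO replicate 1, 2, 3, 4 or 6 or any of the 6 Wildtype arrays.

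Itgav (Entrez gene 16410) encodes the alpha V subunit, which pairs with Itgb3, Itgb5 and other beta subunits to bind RGD-bearing matrix proteins and latent TGF-beta. Wildtype arrays ran from 10.05 over a median of 10.11 to 10.16. The ApoE-KO arrays read 10.29, 10.26, 10.34, 10.24 and 10.25, and ApoE-Stab1-KO arrays ran from 10.18 over 10.30 to 10.34. ApoE-Stab2-KO arrays ran from 10.08 over 10.18 to 10.27. All ApoE-KO and all ApoE-Stab1-KO arrays thus lay above all Wildtype arrays, as for 1.08% and 0.47% of all genes, while ApoE-Stab2-KO arrays overlapped with Wildtype. Itgav rose with ApoE-Stab1-KO plasma by 0.18 ± 0.04, or 1.13-fold (limma adjusted p = 0.044), and in the mean of the 3 ApoE-deficient groups by 0.14 ± 0.03 (0.0405). The difference was 0.17 ± 0.04 with ApoE-KO (adjusted p = 0.0773) and 0.08 ± 0.04 with ApoE-Stab2-KO plasma (0.634). ApoE-Stab2-KO minus ApoE-Stab1-KO plasma gave -0.10 ± 0.04 (limma adjusted p = 0.328). The ApoE-Stab1-KO call ended in 17 of 23 fits with 1 array left out (adjusted p 0.0273 to 0.0966), namely without replicate 1, 2 or 4 of ApoE-KO, 1, 2, 3, 5 or 6 of ApoE-Stab1-KO, ApoE-Stab2-KO replicate 4, 5 or 6, or any of the 6 Wildtype arrays. It also ended with array weights (0.0853), with the replicate number as a block (0.0726) and with only the arrays of the 2 groups compared (0.198). With a fold of at least 1.2 required as well it ended too. The ApoE-KO difference passed with trend and robust settings (0.0449) and among genes above the median level (0.0493). The call in the mean of the 3 groups ended in 14 of 23 (0.0232 to 0.115), namely without replicate 1, 2 or 3 of ApoE-KO, 3 or 6 of ApoE-Stab1-KO, ApoE-Stab2-KO replicate 1, 3, 4 or 5, or Wildtype replicate 1, 3, 4, 5 or 6. With the replicate number as a block that call ended too (0.0646), as it did with a fold of at least 1.2 required as well.

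Lama3 (Entrez gene 16774) encodes the laminin alpha 3 chain, best known from the basement membrane of skin and other epithelia, where it is joined with Lamb3 and bound by the integrin of Itga6 and Itgb4. Wildtype arrays ran from 5.29 over a median of 5.53 to 5.68. The mean over all arrays was 5.33, not far above markers of other cell types, Acta2 (5.06), Col1a1 (5.14) and Des (5.16). Whether so dim a signal is expression was not tested. The ApoE-KO arrays read 5.32, 5.23, 5.13, 5.04 and 5.20, with ApoE-KO replicate 1 above the lowest Wildtype array. ApoE-Stab1-KO arrays ran from 5.22 over 5.35 to 5.55 and ApoE-Stab2-KO arrays from 5.02 over 5.24 to 5.43, so every knockout group overlapped with Wildtype. Lama3 fell with ApoE-KO plasma by 0.33 ± 0.08 to 0.795-fold (limma adjusted p = 0.0477), and in the mean of the 3 groups by 0.26 ± 0.06 (0.0416). The differences with ApoE-Stab1-KO (-0.17 ± 0.07, adjusted p = 0.383) and ApoE-Stab2-KO plasma (-0.27 ± 0.07, 0.181) did not pass. The ApoE-KO call ended in 16 of 23 fits with 1 array left out (adjusted p 0.0224 to 0.137), namely without replicate 2, 3, 4 or 5 of ApoE-KO, 2, 4 or 6 of ApoE-Stab1-KO, ApoE-Stab2-KO replicate 1, 2, 4 or 5, or Wildtype replicate 1, 2, 3, 4 or 6. It also ended with trend and robust settings of limma (0.0745) and with only the arrays of the 2 groups compared (0.0793). The call in the mean of the 3 groups ended with trend and robust settings (0.0667) and in 15 of 23 fits with 1 array left out (0.0197 to 0.159), namely without replicate 2, 3, 4 or 5 of ApoE-KO, 3, 4 or 5 of ApoE-Stab1-KO, ApoE-Stab2-KO replicate 1, 4 or 5, or Wildtype replicate 1, 2, 3, 4 or 6. A fold of at least 1.2 required as well also ended it. Of the genes known to act with Lama3 in epithelia, Lamb3 differed by -0.03 with ApoE-KO plasma and lay below the median level, and Itgb4 by -0.07 ± 0.05. The summed level of the 6 epithelial markers, in log2, was 6.94 to 7.19 with Wildtype and 6.90 to 7.03 with ApoE-KO plasma, and its part in the Lama3 result was not tested.

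**Figure D2:**
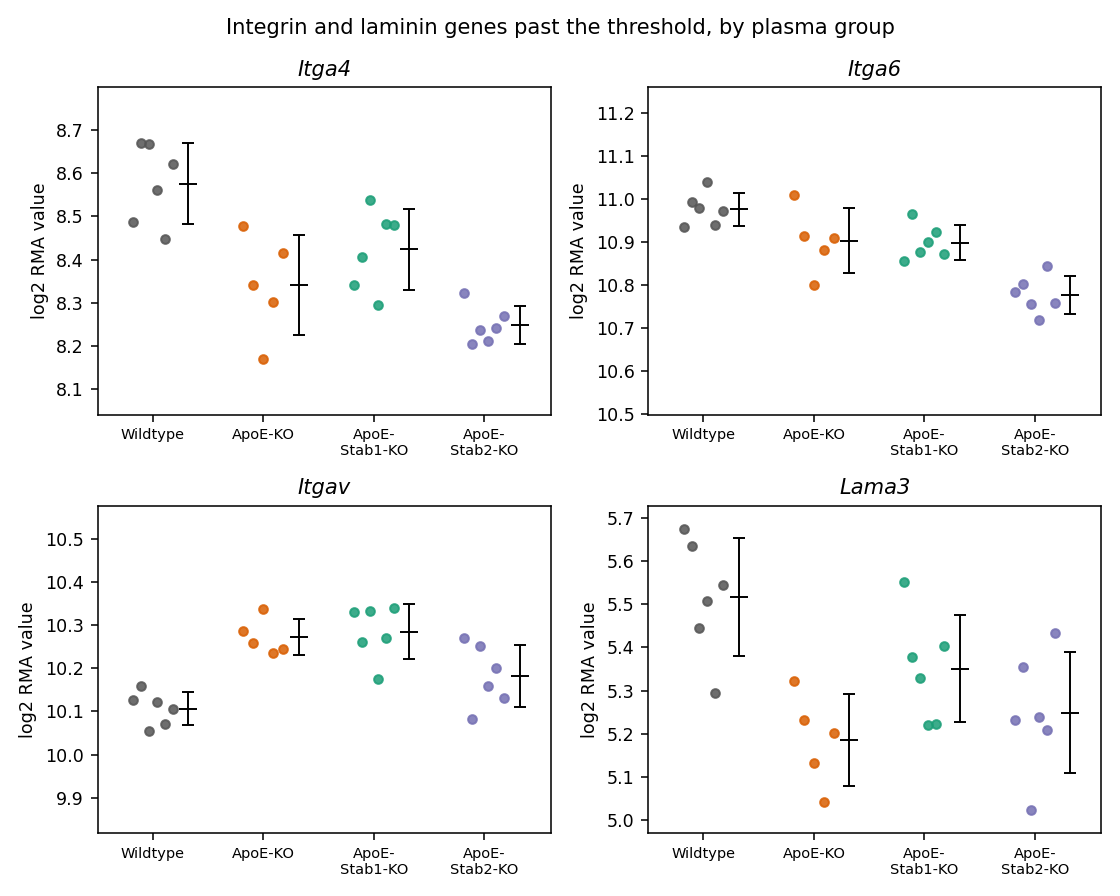
Log2 RMA value (y axis) of Itga4, Itga6, Itgav and Lama3 in each of the 23 arrays, by plasma group; black bars are the mean and SD of a group and all panels span the same number of log2 units. The group mean is lowest with ApoE-Stab2-KO plasma for Itga4 (8.25) and Itga6 (10.78) and with ApoE-KO plasma for Lama3 (5.19), although the single lowest array of Itga4 is of ApoE-KO and that of Lama3 of ApoE-Stab2-KO plasma.

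The summed log2 level of the 14 endothelial markers was 15.32 to 15.36 with Wildtype, 15.19 to 15.33 with ApoE-KO, 15.24 to 15.34 with ApoE-Stab1-KO and 15.25 to 15.32 with ApoE-Stab2-KO plasma. Of these genes, 0 rose and 1 fell with ApoE-KO, 0 rose and 1 fell with ApoE-Stab1-KO, 0 passed in either direction with ApoE-Stab2-KO plasma, and 0 rose and 2 fell in the mean of the 3 groups. Of all genes, 0.53%, 0.364%, 0.178% and 0.777% were called in the same order. At an unadjusted p under 0.05 in limma, 5, 6, 3 and 5 of these 14 markers were lower in the same order and 0 higher. Of all genes, 10.5%, 11.3%, 8.49% and 10.9% stood at that p in either direction. Their part in the falls of Itga4, Itga6 and Lama3 was not tested.

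The laminin-binding alpha subunits other than Itga6 did not pass in any comparison. Itga3, which pairs with Itgb1 and binds Lama5-bearing laminins, was 11.73 ± 0.03 (SD, n = 6) with Wildtype, 11.74 ± 0.06 (n = 5) with ApoE-KO, 11.75 ± 0.08 (n = 6) with ApoE-Stab1-KO and 11.68 ± 0.05 (n = 6) with ApoE-Stab2-KO plasma. The groups overlapped. Itga7, a laminin receptor best known from muscle, differed from Wildtype by -0.01, -0.04 and -0.07 in the same order of knockout plasmas.

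The collagen-binding alpha subunits Itga1 and Itga2, both partners of Itgb1, had lower means with each knockout plasma, but did not pass the threshold. Itga1 was 9.49 ± 0.05 (SD, n = 6) with Wildtype plasma, 9.36 ± 0.12 (n = 5) with ApoE-KO, 9.39 ± 0.12 (n = 6) with ApoE-Stab1-KO and 9.35 ± 0.10 (n = 6) with ApoE-Stab2-KO plasma. The largest of its differences from Wildtype, -0.14 ± 0.06 with ApoE-Stab2-KO plasma, had a limma adjusted p of 0.502. Itga2 was 8.25 ± 0.06 with Wildtype and 8.12 in each knockout group, with SDs of 0.15, 0.18 and 0.12. Its differences of -0.13, -0.14 and -0.13 had adjusted p-values of 0.607, 0.52 and 0.667. Itga10 and Itga11, known from cartilage and from fibroblasts, differed from Wildtype by 0.02 at most upward and by 0.15 at most downward and did not pass.

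Itga5, the fibronectin-binding partner of Itgb1, had lower means with each knockout plasma and did not pass the threshold. It ran from 10.75 over a median of 10.79 to 11.06 with Wildtype plasma, with Wildtype replicate 1 apart from the rest at 11.06. The ApoE-KO arrays read 10.59, 10.63, 10.58, 10.69 and 10.75, ApoE-Stab1-KO arrays ran from 10.62 over 10.64 to 10.81, and ApoE-Stab2-KO arrays from 10.66 over 10.73 to 10.79. The differences were -0.18 ± 0.05 (limma adjusted p = 0.152), -0.16 ± 0.05 (0.189) and -0.10 ± 0.05 (0.615), and without Wildtype replicate 1 the adjusted p for ApoE-KO plasma was 0.277. Of the other RGD-binding alpha subunits, Itga8 was higher in all ApoE-Stab1-KO arrays (3.90 to 4.09) than in all Wildtype arrays (3.68 to 3.88), with 0.47% of all genes so placed, but its difference of 0.19 ± 0.06 did not pass (adjusted p = 0.204) and it lay below the median level. Itga2b, the platelet subunit that pairs with Itgb3, was 4.87 ± 0.16 (SD, n = 6) with Wildtype, 4.81 ± 0.09 (n = 5) with ApoE-KO, 4.68 ± 0.05 (n = 6) with ApoE-Stab1-KO and 4.81 ± 0.12 (n = 6) with ApoE-Stab2-KO plasma. It gave -0.06, -0.19 and -0.07 against Wildtype, with 0 of these past the threshold (limma adjusted p of 0.837, 0.218 and 0.826). Its mean over all arrays, 4.79, was below that of Lama3, and whether so dim a signal is expression was not tested. The summed log2 level of the 5 platelet markers was 7.36 to 7.65 with Wildtype and 7.28 to 7.82 with ApoE-Stab1-KO plasma.

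The beta subunits that endothelial cells use gave small differences. Itgb1, the shared partner of most alpha subunits, was 11.59 ± 0.06 (SD, n = 6) with Wildtype, 11.65 ± 0.09 (n = 5) with ApoE-KO, 11.67 ± 0.10 (n = 6) with ApoE-Stab1-KO and 11.59 ± 0.05 (n = 6) with ApoE-Stab2-KO plasma. Its 95% intervals against Wildtype were -0.05 to 0.16, -0.03 to 0.18 and -0.10 to 0.10. Itgb3, the vitronectin receptor partner of Itgav, was 11.84 ± 0.08, 11.83 ± 0.10, 11.85 ± 0.11 and 11.89 ± 0.05 in the same order of groups. Its intervals against Wildtype were -0.13 to 0.10, -0.10 to 0.13 and -0.06 to 0.16. Itgb5, another partner of Itgav, was 7.43 ± 0.09, 7.52 ± 0.10, 7.51 ± 0.11 and 7.54 ± 0.14 in that order, with differences from Wildtype of 0.09, 0.08 and 0.11 and limma adjusted p-values of 0.7, 0.692 and 0.68. Itgb4, the laminin-binding partner of Itga6 that links to intermediate filaments, was 9.78 ± 0.12, 9.71 ± 0.08, 9.68 ± 0.08 and 9.70 ± 0.03, with differences of -0.07, -0.10 and -0.07 and adjusted p-values of 0.74, 0.474 and 0.742. Thus the partners of Itga4, Itga6 and Itgav did not pass in the comparisons in which those alpha subunits did.

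Integrins known from leukocytes were read with the leukocyte markers beside them. Itgb2, the beta subunit of the leukocyte integrins, ran from 8.25 over a median of 8.45 to 8.57 with Wildtype plasma. The ApoE-KO arrays read 8.58, 8.94, 8.53, 8.82 and 8.76. ApoE-Stab1-KO arrays ran from 8.28 over 8.62 to 8.76 and ApoE-Stab2-KO arrays from 8.59 over 8.72 to 8.87. All ApoE-Stab2-KO arrays lay above all Wildtype arrays, as for 0.636% of all genes, and the other groups overlapped with Wildtype. The differences from Wildtype were 0.29 ± 0.09 with ApoE-KO (limma adjusted p = 0.164), 0.15 ± 0.08 with ApoE-Stab1-KO (0.544) and 0.29 ± 0.08 with ApoE-Stab2-KO plasma (0.221), and did not pass. Its alpha partners Itgal, Itgam, Itgax and Itgad lay below the median level. Itgam was 3.42 ± 0.04, 3.49 ± 0.09, 3.46 ± 0.07 and 3.56 ± 0.10, and Itgax 3.54 ± 0.16, 3.65 ± 0.16, 3.41 ± 0.12 and 3.57 ± 0.10 (SD), with Wildtype plasma first and ApoE-Stab2-KO plasma last. Of these, Itgam gave 0.15 ± 0.05 with ApoE-Stab2-KO against Wildtype plasma (adjusted p = 0.341) and Itgax -0.24 ± 0.08 with ApoE-Stab1-KO against ApoE-KO plasma (0.82). Itgb7, which pairs with Itga4 or Itgae, read 4.42, 4.47, 4.56, 4.36 and 4.42 with ApoE-KO plasma and ran from 4.06 over 4.26 to 4.40 with Wildtype, from 4.21 over 4.34 to 4.42 with ApoE-Stab1-KO and from 4.15 over 4.31 to 4.35 with ApoE-Stab2-KO plasma. Its ApoE-Stab2-KO arrays lay below all ApoE-KO arrays, as for 0.781% of all genes, with a difference of -0.17 ± 0.06 that did not pass (limma adjusted p = 0.439). The Itgb7 mean over all arrays, 4.32, was near the median value of 4.33, so its signal may be close to background. Of the 7 leukocyte markers measured, 6 lay below the median level, and the exception was Cd68, a lysosomal protein of macrophages (10.98 to 11.43). Their summed log2 level was 11.09 to 11.26 with Wildtype, 11.26 to 11.47 with ApoE-KO, 11.04 to 11.18 with ApoE-Stab1-KO and 11.17 to 11.32 with ApoE-Stab2-KO plasma, a sum that Cd68 dominates. The mean log2 value over the 7 genes overlapped, at 4.58 to 4.69 with Wildtype, 4.58 to 4.72 with ApoE-KO, 4.55 to 4.71 with ApoE-Stab1-KO and 4.63 to 4.71 with ApoE-Stab2-KO plasma. The part of these markers in the values of Itgb2 was not tested.

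Among the laminin chains of endothelial basement membrane, the highest against the lowest group of Lama4 were ApoE-Stab1-KO and ApoE-Stab2-KO plasma. Lama4 ran from 9.31 over a median of 9.38 to 9.43 with Wildtype plasma, and its ApoE-KO arrays read 9.45, 9.42, 9.42, 9.40 and 9.44. ApoE-Stab1-KO arrays ran from 9.39 over 9.46 to 9.62 and ApoE-Stab2-KO arrays from 9.28 over 9.31 to 9.37. All ApoE-Stab2-KO arrays lay below all ApoE-KO and all ApoE-Stab1-KO arrays, as for 0.781% and 0.381% of all genes. The differences of -0.15 ± 0.04 from ApoE-Stab1-KO (limma adjusted p = 0.11) and of -0.11 ± 0.04 from ApoE-KO plasma (0.434) did not pass.

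Lama5, the other laminin alpha chain of endothelium, was 10.11 ± 0.13 (SD, n = 6) with Wildtype, 10.00 ± 0.07 (n = 5) with ApoE-KO, 10.02 ± 0.09 (n = 6) with ApoE-Stab1-KO and 9.99 ± 0.08 (n = 6) with ApoE-Stab2-KO plasma. Its differences from Wildtype of -0.10, -0.08 and -0.11 had limma adjusted p-values of 0.588, 0.615 and 0.594. Lamc1, the gamma chain shared by these laminins, was 10.89 ± 0.07, 10.80 ± 0.05, 10.83 ± 0.11 and 10.79 ± 0.08 in the same order of groups, with adjusted p-values of 0.609, 0.713 and 0.599 against Wildtype. Wildtype replicate 1 was the highest array of its group for Lama5 (10.34), Lamc1 (11.02), Itga5 (11.06) and Itgb4 (10.00). Replicate 1 was also the highest Lamc1 array with ApoE-KO (10.89), ApoE-Stab1-KO (10.99) and ApoE-Stab2-KO plasma (10.90). For Lama5 it was the highest with ApoE-Stab1-KO and ApoE-Stab2-KO but not ApoE-KO plasma, for Itgb4 only with ApoE-Stab1-KO plasma, and for Itga5 with no knockout plasma. Lamb1 was 9.57 ± 0.04, 9.58 ± 0.09, 9.61 ± 0.13 and 9.54 ± 0.08 in that order, and its 95% intervals against Wildtype were -0.11 to 0.12, -0.07 to 0.15 and -0.13 to 0.09. Lamb2 was 9.64 ± 0.05, 9.51 ± 0.12, 9.57 ± 0.08 and 9.59 ± 0.05, and its difference of -0.13 ± 0.05 with ApoE-KO plasma did not pass (adjusted p = 0.327).

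**Figure D3:**
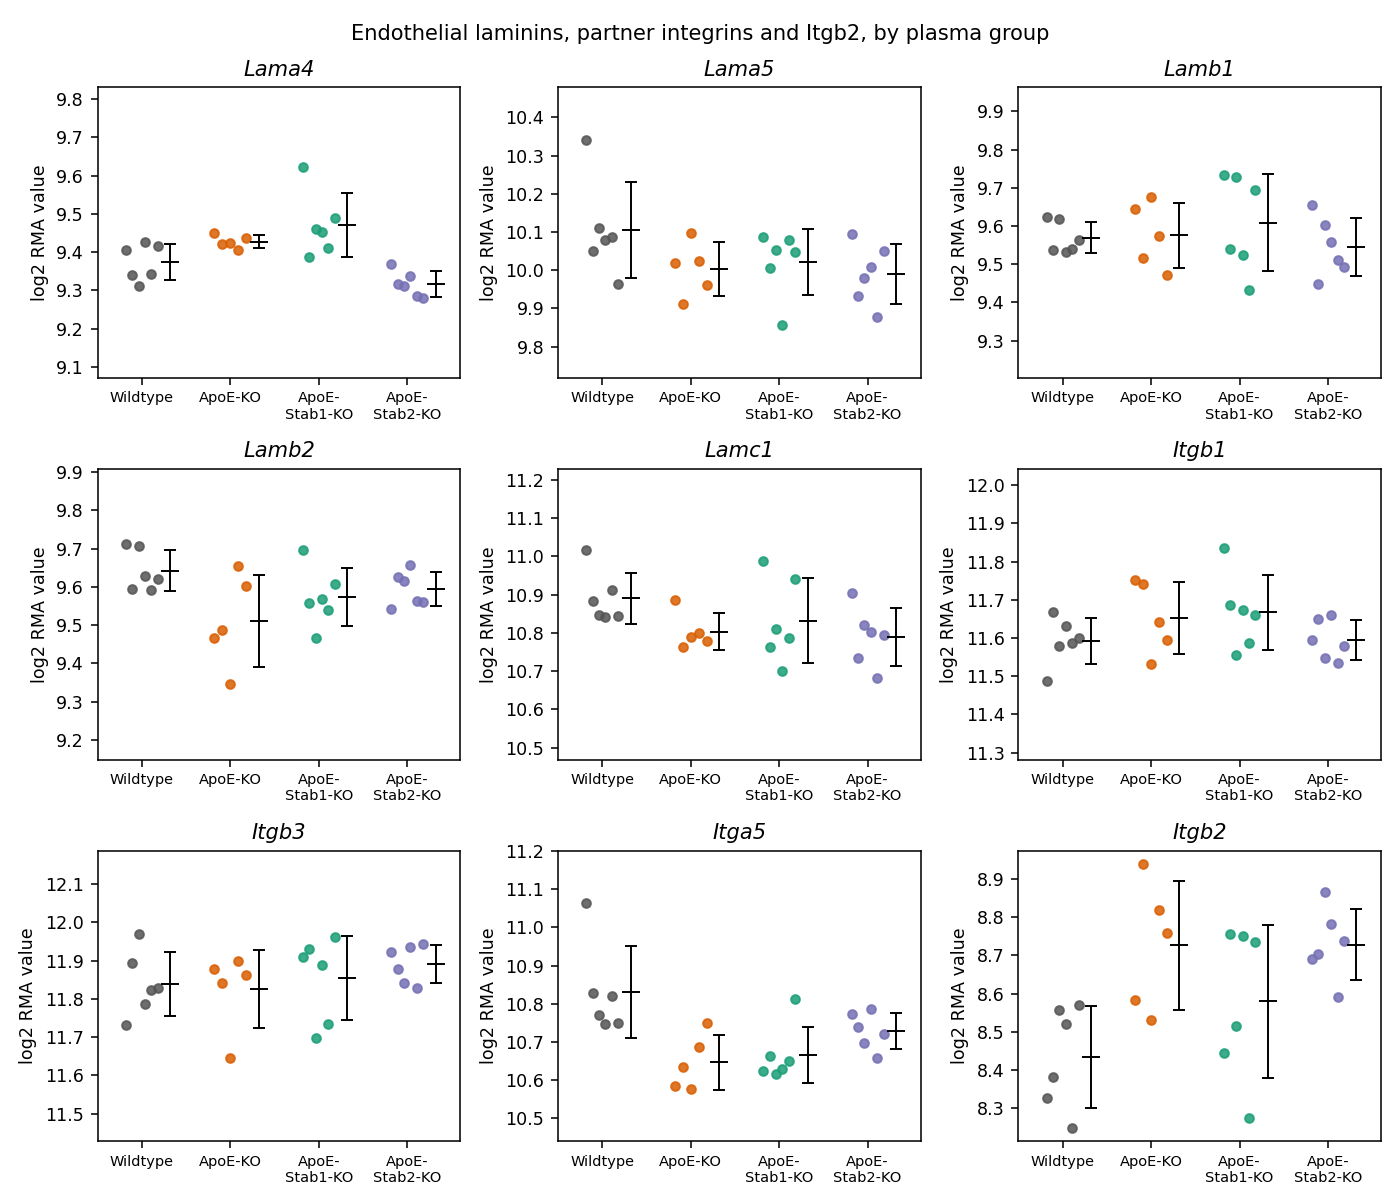
Log2 RMA value (y axis) in each array, by plasma group, for 5 laminin chains of endothelial basement membrane and for Itgb1, Itgb3, Itga5 and Itgb2; black bars are the mean and SD of a group and all panels span the same number of log2 units. None of these genes passed the threshold, and the Lama4 arrays of ApoE-Stab2-KO plasma (9.28 to 9.37) lie below those of ApoE-KO and ApoE-Stab1-KO plasma.

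Between the ApoE-deficient plasmas, 0 of 38 members passed in limma. ApoE-Stab1-KO against ApoE-KO plasma had 4 members at an unadjusted p under 0.05 (Itga8, Itgax, Lama1 and Lama3) and 0.00405% of all genes called. ApoE-Stab2-KO against ApoE-KO plasma also had 4 (Itga6, Itgav, Itgb7 and Lama4), with 0.0243% of all genes called. ApoE-Stab2-KO against ApoE-Stab1-KO plasma had 5 (Itga4, Itga6, Itgav, Itgax and Lama4), with 0.0486% of all genes called. The shares of members at that unadjusted p were 10.5%, 10.5% and 13.2%, and those of all genes 5.57%, 8.36% and 11%. The median difference over the members was 0.02, -0.01 and -0.03 in the same order, beside 0.00 over all genes in each.

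The 15 members not described above with their own spread (Itga7, Itga9, Itga10, Itga11, Itgad, Itgae, Itgal, Itgb2l, Itgb6, Itgb8, Itgbl1, Lama1, Lama2, Lamb3 and Lamc3) gave differences between -0.17 (Itga10) and 0.21 (Lamb3) over the 6 pairwise comparisons. Of these 90 differences, 0 passed and 1 had an unadjusted p under 0.05 in limma, that of Lama1 for ApoE-Stab1-KO minus ApoE-KO plasma (0.09). Over all genes the share at that p was 5.57% to 11.3% in these comparisons, but these 15 genes are what was left after the members with the smallest F-test p had been taken, so a low count follows from the choice. Itga9, the closest relative of Itga4 among the alpha subunits, differed from Wildtype by -0.12 with ApoE-KO, -0.07 with ApoE-Stab1-KO and -0.08 with ApoE-Stab2-KO plasma. Itgbl1 resembles the beta subunits in sequence and is not a receptor subunit.

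The genes around the integrins were read from 4 lists. Of 17 non-laminin ligands, 2 rose and 0 fell with ApoE-KO against Wildtype plasma, and likewise 2 rose and 0 fell in the mean of the 3 ApoE-deficient groups, where 0.53% and 0.777% of all genes were called. Thbs1, thrombospondin, a matrix protein that binds Itgav with Itgb3, was 5.77 ± 0.25 (SD, n = 6) with Wildtype and 6.33 ± 0.08 (n = 5) with ApoE-KO plasma. It rose by 0.57 ± 0.10 (SE, limma adjusted p = 0.0094), with ApoE-KO arrays above all Wildtype arrays, as for 1.08% of all genes. Ccn2, a matrix protein that binds several integrins, was 7.04 ± 0.18 and 7.55 ± 0.23 and rose by 0.51 ± 0.11 (adjusted p = 0.034). The call of Ccn2 ended without ApoE-KO replicate 2 (0.0586), 3 (0.101) or 4 (0.0647) or Wildtype replicate 2 (0.0548), 3 (0.0873), 4 (0.0517) or 6 (0.0711), and with only the arrays of the 2 groups compared (0.0778). It also ended with the replicate number as a block (0.0914). In the mean of the 3 groups Thbs1 rose by 0.45 ± 0.08 (limma adjusted p = 0.00704) and Ccn2 by 0.38 ± 0.09 (0.0369). The latter call ended without ApoE-Stab1-KO replicate 6 (0.0502), ApoE-Stab2-KO replicate 3 (0.0513) or 6 (0.051), or Wildtype replicate 2 (0.075), 3 (0.129), 4 (0.0644), 5 (0.0647) or 6 (0.0978). With the replicate number as a block it ended too (0.0873). With ApoE-Stab1-KO and ApoE-Stab2-KO plasma Thbs1 differed from Wildtype by 0.37 and 0.41 (adjusted p of 0.119 each) and Ccn2 by 0.26 and 0.36 (0.329 and 0.239).

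Of 28 integrin activators and adaptors, the proteins that tie the tails of beta subunits to actin, 0 passed in the 6 pairwise comparisons. By comparison, 0.00405% to 0.53% of all genes were called there. For ApoE-KO against Wildtype, 5 of the 28 were at an unadjusted p under 0.05 in limma, 1 higher and 4 lower, where 10.5% of all genes stood at that p. In the mean of the 3 groups against Wildtype 0 rose and 1 fell, where 0.777% of all genes were called. The 1 was Tns3, a tensin of fibrillar adhesions (-0.22 ± 0.05, limma adjusted p = 0.0349). Tns3 was 7.70 ± 0.12 (SD, n = 6) with Wildtype, 7.48 ± 0.10 (n = 5) with ApoE-KO, 7.52 ± 0.12 (n = 6) with ApoE-Stab1-KO and 7.46 ± 0.04 (n = 6) with ApoE-Stab2-KO plasma. Its call ended without ApoE-KO replicate 2 (0.0574), 3 (0.0516) or 5 (0.0513), ApoE-Stab2-KO replicate 5 (0.0531) or Wildtype replicate 1 (0.134), 4 (0.0644) or 5 (0.0916). It also ended with a fold of at least 1.2 required as well.

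Of 16 other basement membrane genes, 0 passed in any comparison by limma, where 0.00405% to 0.777% of all genes were called, depending on the comparison. Col4a1 and Col4a2, the chains of the main type IV collagen, were the closest. Col4a1 was 10.15 ± 0.14 (SD, n = 6) with Wildtype and 9.92 ± 0.10 (n = 6) with ApoE-Stab1-KO plasma, a difference of -0.23 ± 0.06 (adjusted p = 0.0801, and 0.0466 with trend and robust settings), and Col4a2 differed by -0.16 ± 0.06 with ApoE-Stab2-KO plasma (adjusted p = 0.367). The Wildtype median and highest array were 10.09 and 10.44 for Col4a1 and 9.97 and 10.22 for Col4a2. Both Wildtype means thus lay above their medians. At an unadjusted p under 0.05 the list had 0 higher and 3 lower with ApoE-KO, 1 higher and 2 lower with ApoE-Stab1-KO, and 0 higher and 5 lower with ApoE-Stab2-KO plasma against Wildtype, where 10.5%, 11.3% and 8.49% of all genes stood at that p. Of 8 laminin receptors that are not integrins, 0 passed, beside the same 0.00405% to 0.777% of all genes called. The smallest F-test p among them belonged to Sdc4, a syndecan of focal adhesions (0.28 ± 0.09 with ApoE-Stab2-KO against Wildtype plasma, adjusted p = 0.362), and Rpsa, the ribosomal protein also known as the laminin receptor (0.51 ± 0.19 with ApoE-Stab2-KO against ApoE-KO plasma, adjusted p = 0.462). Rpsa read 4.24 ± 0.33 (SD, n = 5) with ApoE-KO and 4.75 ± 0.37 (n = 6) with ApoE-Stab2-KO plasma. That is near the median value of 4.33, so its signal may be close to background.

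**Figure D4:**
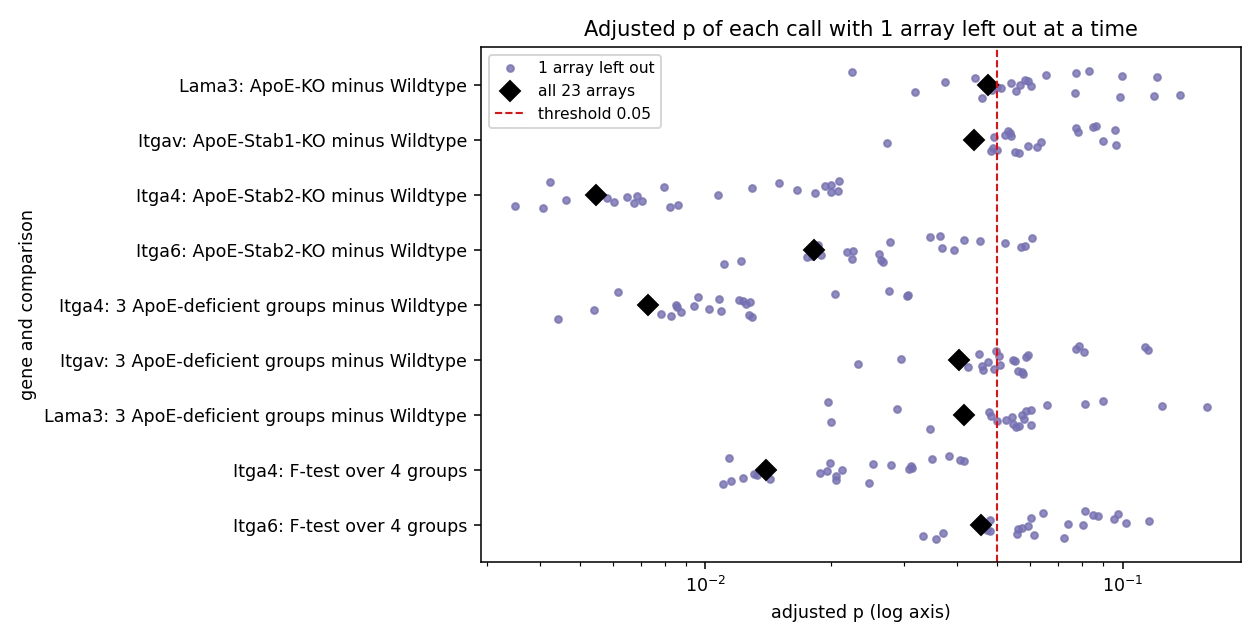
Adjusted p (x axis, log scale) of each of the 9 calls among the integrin and laminin genes with all 23 arrays (black diamonds) and with 1 array left out at a time (purple points); the dashed line is the threshold of 0.05. The 3 calls of Itga4 stay left of the line in all fits, with a highest adjusted p of 0.0417, and each of the other 6 crosses it in some.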

How the data were processed

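The authors made the deposited log2 values with RMA (background correction, quantile normalization, summary of probes), per the submitters' processing notes, which name no version. Quantile normalization makes each value relative to the rest of its array. Gene symbols came from the platform annotation, which gives none for 723 of 25428 probe sets, and these were dropped. Of 2 probe sets for 1 symbol the brighter stayed, for 24704 genes in all, and each of the 38 members had 1 probe set. Tests used lmFit and eBayes of limma 3.58.1 (R 4.3.3) with a mean for each group over the 23 arrays (residual degrees of freedom 19, prior 4.19) and Benjamini-Hochberg adjustment over all genes. Dim genes were kept, and the number of arrays limits the precision. Errors of differences are standard errors, and intervals are 95%. The script was tested on simulated data. The alternatives are given in the closing section.

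Group values are given for called members, for the 12 members with the smallest F-test p and for 15 subunits of endothelial basement membrane and its receptors, and, in each list of neighbours, for called genes or otherwise the 2 with the smallest p. Members and lists were chosen with earlier results of these data known. Over all genes, replicate numbers gave little sign of pairing. Of 33 pairs of arrays with 1 number, 1 had a correlation of deviations from the group means over 0.1 (-0.10 to 0.11). This check takes all genes together, dim ones too, and cannot exclude pairing in single genes. In some members the numbers did line up. Replicates 1 and 3 were the 2 highest Lamb1 arrays in all 4 groups, and replicate 1 was the highest Lamc1 array in all 4. The highest Itga4 arrays were replicates 1, 3, 1 and 2 with ApoE-KO, ApoE-Stab1-KO, ApoE-Stab2-KO and Wildtype plasma. These genes were picked, and pairing over the members as a set was not tested. The main fit leaves the numbers out. Plots were made in matplotlib 3.10.9 (Python 3.11.15).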

Additional observations from a re-analysis of the deposited data

Results flagged for a closer look

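Of 152 sets of group values (38 genes in 4 groups), 10 held an array that stood apart from the others of its group by a gap above Dixon's 95% critical value, and chance gives about 1 in 20. Wildtype replicate 1 stood apart upward for Itga5 (11.06, next 10.83) and Itgb4 (10.00, next 9.77). Among ApoE-Stab1-KO arrays, replicate 1 was apart upward for Itga10 (5.54) and Lama2 (3.75, next 3.61) and replicate 6 for Itga5 (10.81, next 10.66). Downward stood ApoE-Stab1-KO replicate 2 for Itgb2l (3.10, next 3.23), replicate 5 for Lama1 (3.66, next 3.75) and replicate 4 for Lama5 (9.86, next 10.01). In the ApoE-KO group, replicate 1 was apart downward for Itgae (3.30, next 3.42) and replicate 3 for Itgb3 (11.65, next 11.84). None of these 9 genes passed the threshold in any comparison.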

How the results depend on the processing

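Under 10 kinds of alternative, 0 of 7566 values of named genes turned their direction past the threshold. Members called for ApoE-KO against Wildtype were 1, and 3 among genes above the median level (Itga4, Itgav and Lama3), 2 with array weights, 0 with only the arrays of the 2 groups, and 0 to 2 with 1 array left out. With trend and robust settings Lama3 missed the threshold (adjusted p = 0.0745) and Itgav passed (0.0449). For ApoE-Stab1-KO against Wildtype 1 was called, and 0 with array weights, with only the arrays of the 2 groups, or with a fold of at least 1.2 as well, and 0 to 1 with 1 array left out. For ApoE-Stab2-KO against Wildtype 2 were called, 1 with only the arrays of the 2 groups, 1 with the fold of at least 1.2, and 1 to 2 with 1 array left out. In the mean of the 3 groups 3 were called, 0 with the fold, and 1 to 3 with 1 array left out, and in the F-test 2, and 1 to 2 with 1 array left out. The median member difference moved, among genes above the median level, to -0.0658 for ApoE-KO, -0.0586 for ApoE-Stab1-KO, -0.0747 for ApoE-Stab2-KO and -0.0803 for the mean of the 3 groups, where only 23 members remain. No median over all genes above that level stands beside these values. The causes of the other changes were not tested. With the replicate number as a block, members called were 0 for ApoE-Stab1-KO and 1 for ApoE-Stab2-KO against Wildtype and 1 in the F-test, where Lama3 passed (0.0474) and Itga4 (0.0532) and Itga6 (0.108) did not. Over all genes the numbers gave little sign of pairing, with 6 of 23 arrays having their best match in another group under their own number. Pairing in single genes is not excluded, and in Lamb1 and Lamc1 the highest arrays shared their numbers across the groups. The losses under the block thus cannot be set aside. Quantile normalization again, centring on the median and each probe set as its own feature changed no count. Signal near background limits the 15 dim members and may limit Lama3. It may also limit Itga10 (mean over all arrays 4.89), Itga2b (4.79), Itga7 (4.36) and Itgb7 (4.32), which were dimmer than Lama3.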
